A study of Mus musculus with 7 samples.

Results

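The p53 target genes described here are 10 genes that the transcription factor p53 is known to activate: the cell cycle genes Cdkn1a, Ccng1 and Plk2, the p53 inhibitor Mdm2, the death genes Bbc3, Bax, Trp53inp1 and Eda2r, and the stress genes Sesn1 and Zmat3. They were chosen by name and found by their Ensembl gene identifiers among 13553 genes with a transcript start or end event. Of the 10 genes, 9 had such an event under their own identifier, and Bax was listed under that of a neighbouring gene. RNA was sequenced from neural progenitors derived from mouse embryonic stem cells of the B6G-2 line (wild type), to learn how insecticides disturb the developing nervous system. Embryoid bodies were grown for 6 days, progenitors were kept with bFGF and EGF until day 14, and they were then moved to differentiation medium (BrainPhys with B27) and exposed for 1 day. There was 1 library for each of chlorpyrifos (an organophosphate that inhibits acetylcholinesterase), DDT (an organochlorine that acts on sodium channels), rotenone (an inhibitor of mitochondrial complex I), carbaryl (a carbamate that inhibits acetylcholinesterase), deltamethrin (a pyrethroid that acts on sodium channels), imidacloprid (a neonicotinoid that acts on nicotinic receptors) and control. Neither dose nor vehicle is in the labels. Their tissue entry reads brain, but all cells came from 1 stem cell line. Because every group is a single library, differences cannot be set against replicates and p-values are left out, and the 6 comparisons share the same control library.

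p53 is held at a low level by the ubiquitin ligase Mdm2, and DNA damage and other stresses release it from this control. It then binds pairs of short repeats in the promoters or introns of its targets, which stop the cell cycle, repair damage, feed back on p53 or start apoptosis. In neural progenitors p53 is known to restrain self-renewal and to drive death after DNA damage.

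The promoter sequences of Cdkn1a are shown because the 2 groups of its transcripts, from an upstream and a proximal start, differed between libraries, and the short elements show the core repeats found near other members. Windows of 250 bases before to 50 bases after a start were taken from RefSeq (build GRCm38.p6), which gave 12 windows for 8 of the 10 genes (all but Trp53inp1 and Zmat3). The strict motif CATGNNNNNNCATG, which reads alike on both strands, was in 234 of 32851 promoters (0.712%) and in 1 of the 12 windows. A wider motif, any pair of cores with 6 bases between them, where a core is CATG or CTAG or else CAAG or its complement CTTG, covers both strands and includes the strict motif. It was in 2371 promoters (7.22%) and in 3 of the 12 windows, those of the upstream start of Cdkn1a (chr17:29090928-29090947, plus strand), of Bbc3 (chr7:16309486-16309505, plus strand) and of Plk2 (chr13:110395038-110395057, plus strand). A match is a description of these letters, not a proven site. The element's centre was at -41 from the upstream RefSeq start of Cdkn1a, at -87 from that of Bbc3 and at 4 from that of Plk2. Both Cdkn1a promoters are on the plus strand, at chr17:29090729-29090978 for the upstream start and chr17:29093519-29093768 for the proximal one. Capitals mark the core repeats in the elements and the whole element in the promoter, and the proximal promoter held no match.
Cdkn1a element: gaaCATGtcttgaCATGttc
Bbc3 element: ctgCAAGccccgaCTTGtcc
Plk2 element: gctCTTGctcgcaCAAGcga
Cdkn1a upstream promoter: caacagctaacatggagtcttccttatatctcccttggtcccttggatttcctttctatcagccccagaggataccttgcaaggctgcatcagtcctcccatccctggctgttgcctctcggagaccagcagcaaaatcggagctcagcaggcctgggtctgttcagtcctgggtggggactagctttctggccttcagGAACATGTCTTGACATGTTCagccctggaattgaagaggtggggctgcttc
Cdkn1a proximal promoter: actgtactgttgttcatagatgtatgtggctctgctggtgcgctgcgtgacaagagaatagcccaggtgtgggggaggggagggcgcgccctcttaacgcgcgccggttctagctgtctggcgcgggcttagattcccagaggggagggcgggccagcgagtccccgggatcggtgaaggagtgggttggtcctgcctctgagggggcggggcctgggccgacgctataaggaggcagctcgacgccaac

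Values are in FPKM, which scales the fragments of an event by transcript length and by library size, as estimated by the authors. A gene's transcript starts and its transcript ends, each summed, should both equal its level, so a gene was given a fold only where both totals lay, on average, within 0.3 of each other (log2) and its mean reached 1 FPKM. That held for 5 of the 10 genes and for 6289 genes in all. Bbc3 missed the limit narrowly, at 0.32, and Mdm2 clearly, at 1.45, while Sesn1 and Zmat3 had starts only. Folds are differences of log2(FPKM + 1), insecticide minus control, which understates changes of low genes. In bulk RNA, fewer cells of a type and less RNA per cell cannot be told apart. The files hold no read counts, so the depth is unknown, and each library listed between 93977 and 95776 distinct events. Among markers of the cells the culture could hold, 6 of 8 progenitor genes were listed, with summed levels of 1225 to 1490 FPKM in exposed libraries and 1345 FPKM in control. For neurons 6 of 8 markers were listed (354 to 416 FPKM in exposed libraries, 383 FPKM in control), for astrocytes 8 of 8 (242 to 272 FPKM, 243 FPKM in control) and for oligodendrocytes 5 of 8 (114 to 174 FPKM, 167 FPKM in control). Markers of mesenchyme summed to 22.3 to 32.7 FPKM in exposed libraries and 25.4 FPKM in control, and those of stem cells to 1.28 to 2.93 FPKM and 1.95 FPKM. Single markers differed more than these sums: the synaptic vesicle gene Syt1 had 11.5 to 14.7 FPKM in exposed libraries and 3.07 FPKM in control (log2 folds 1.61 to 1.95), which is more than any p53 target with a fold. All 5 usable mesenchyme markers were higher with rotenone than in control (median log2 fold 0.22, with Acta2 at 6.98 FPKM against 3.59 FPKM, 0.80). The part of either in the values of the p53 targets was not tested. None of 5 endoderm and none of 6 microglia and blood markers had a start or end event.

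Across the 5 genes with a fold, most stood slightly higher in exposed libraries than in control, and Eda2r was lower in 4 of the 6. The median log2 fold of the 5 genes was 0.22 with chlorpyrifos, 0.10 with DDT, 0.18 with rotenone, 0.24 with carbaryl, 0.12 with deltamethrin and 0.04 with imidacloprid. Over all genes tested the median lay between -0.00 and 0.01 in the same comparisons. The number of genes above control was 4 with chlorpyrifos (50% of all genes tested), 4 with DDT (52.4%), 3 with rotenone (51%), 5 with carbaryl (49.9%), 4 with deltamethrin (50.7%) and 3 with imidacloprid (53.4%). A level at least 1.2-fold above control was found for Cdkn1a with chlorpyrifos (1 of 5 genes, against 11.2% of all genes), for Cdkn1a and Trp53inp1 with carbaryl (2 of 5, against 10.7%) and for Cdkn1a with deltamethrin (1 of 5, against 11.1%). There was none with DDT (12.3%), rotenone (12.2%) or imidacloprid (11.2%). A level as far below control was found for Eda2r with chlorpyrifos (1 of 5, against 11.6%), deltamethrin (1 of 5, against 11.4%) and imidacloprid (1 of 5, against 10.3%), and for Eda2r and Plk2 with rotenone (2 of 5, against 11.4%). There was none with DDT (12.5%) or carbaryl (11.1%). No gene of the 5 was 1.5-fold or more above control, a size that 2.63% of all genes reached with chlorpyrifos, 3.37% with DDT, 3.05% with rotenone, 3.1% with carbaryl, 2.96% with deltamethrin and 3.15% with imidacloprid.

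These medians lay within the range between exposed libraries, but their typical size was larger and all were positive. Each was taken against the same control library. Among the 15 pairs of exposed libraries the median of the same 5 genes ranged from -0.17 to 0.27, with a median size of 0.0992. In the 6 pairs with control it ranged from 0.04 to 0.24, with a median size of 0.153. With the median of the other 6 libraries in place of control, the median fold was -0.08 with DDT, 0.00 with rotenone and -0.16 with imidacloprid, so the sign for DDT and imidacloprid rested on the single control library. Cdkn1a and Ccng1 were then also below the baseline with DDT (-0.16 and -0.08) and with imidacloprid (-0.22 and -0.16).

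**Figure D1:**
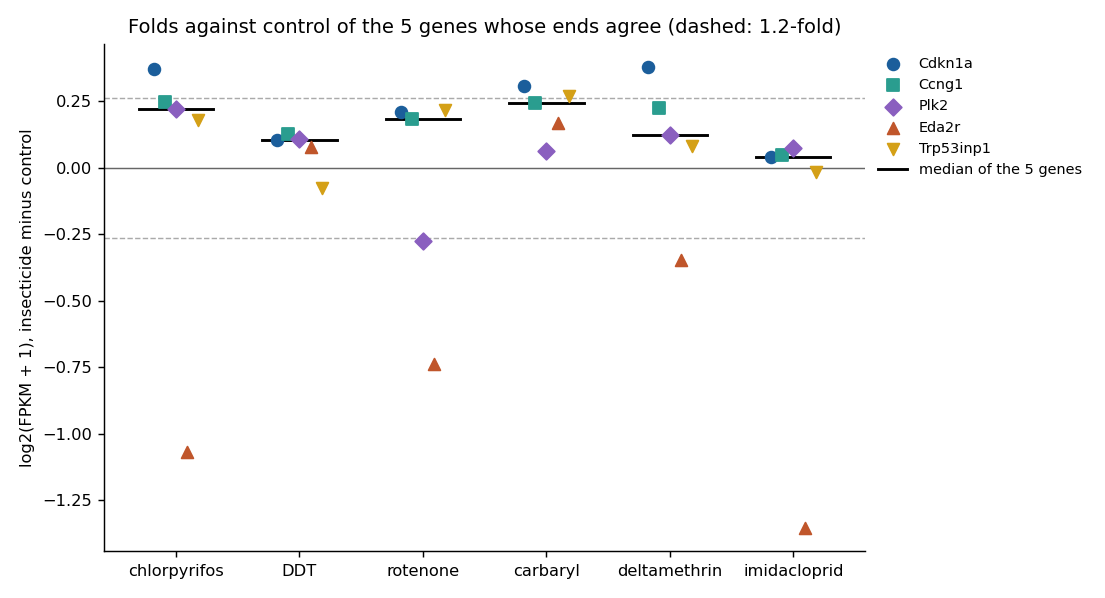
Difference of log2(FPKM + 1), insecticide minus control, for the 5 p53 target genes with agreeing starts and ends. Each point is 1 gene in 1 library, black bars are medians of the 5 genes, and dashed lines mark 1.2-fold. Medians run from 0.04 with imidacloprid to 0.24 with carbaryl, and Eda2r lies lowest with chlorpyrifos, rotenone, deltamethrin and imidacloprid.

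Cdkn1a (chr17:29090976-29100727, plus strand) encodes p21, the inhibitor of cyclin-dependent kinases through which p53 halts the cell cycle. Its level was 79.2 FPKM with chlorpyrifos, 65.6 with DDT, 70.6 with rotenone, 75.7 with carbaryl, 79.6 with deltamethrin and 62.8 with imidacloprid, against 61.0 FPKM in control. Control was the lowest of the 7 libraries, and imidacloprid and DDT were nearest to it. The log2 folds were 0.37 with chlorpyrifos, 0.10 with DDT, 0.21 with rotenone, 0.31 with carbaryl, 0.38 with deltamethrin and 0.04 with imidacloprid. Control was likewise the lowest library for 13.9% of all genes tested, and 33.6% of genes within 2-fold of the mean of Cdkn1a spanned at least as wide a log2 range.

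Ccng1 (chr11:40748552-40755311, minus strand), an atypical cyclin that takes part in the Mdm2 feedback, had the same order at its low end. Its level was 88.4 FPKM with chlorpyrifos, 81.3 with DDT, 84.6 with rotenone, 88.2 with carbaryl, 87.1 with deltamethrin and 76.8 with imidacloprid, against 74.3 FPKM in control. Control was again lowest and imidacloprid next to it, with log2 folds from 0.05 with imidacloprid to 0.25 with chlorpyrifos. Of the genes within 2-fold of its mean, 54.1% spanned at least its range.

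Among the 4720 genes that averaged 5 FPKM or more, Ccng1 ranked 3 by likeness to Cdkn1a, measured as the root mean square difference between the centred log2(FPKM + 1) values over the 7 libraries. That difference was 0.0635 for Ccng1, 0.0571 for Ncaph2, 0.0593 for Cdc27, 0.0641 for Ak1 and 0.0651 for Polrmt, against a median of 0.185 over the genes compared. Trp53inp1 ranked 81 (0.107), while Plk2 ranked 1924 (0.174), near that median, so Plk2 did not share the pattern of Cdkn1a over the libraries. Eda2r averaged 3.91 FPKM and was not ranked.

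Plk2 (chr13:110395046-110400844, plus strand), a polo-like kinase that p53 induces and that also acts at synapses, departed from that pattern with rotenone. Its level was 37.2 FPKM with chlorpyrifos, 34.3 with DDT, 26.1 with rotenone, 33.2 with carbaryl, 34.6 with deltamethrin and 33.4 with imidacloprid, against 31.7 FPKM in control. Rotenone was the lowest library and the only exposed one below control, with a log2 fold of -0.28. The other folds lay between 0.06 with carbaryl and 0.22 with chlorpyrifos, and 25.6% of genes of like level spanned at least the range of Plk2.

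Trp53inp1 (chr4:11156431-11174379, plus strand) encodes a nuclear protein that promotes p53-dependent arrest, death and autophagy. Its level was 18.9 FPKM with chlorpyrifos, 15.7 with DDT, 19.5 with rotenone, 20.3 with carbaryl, 17.7 with deltamethrin and 16.4 with imidacloprid, against 16.6 FPKM in control. Carbaryl, rotenone and chlorpyrifos were the highest libraries (log2 folds 0.27, 0.22 and 0.18), deltamethrin stood at 0.08, and imidacloprid and DDT were just under control (-0.02 and -0.08). A range at least as wide was found in 44.8% of genes of like level.

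Eda2r (chrX:97333840-97377216, minus strand), the receptor for ectodysplasin A2, was the lowest of the 5 genes with a fold and the one that varied most among them. Its level was 2.01 FPKM with chlorpyrifos, 5.68 with DDT, 2.79 with rotenone, 6.11 with carbaryl, 3.97 with deltamethrin and 1.47 with imidacloprid, against 5.32 FPKM in control. DDT and carbaryl were close to control, and the other 4 exposed libraries lay below it. The log2 folds were -1.07 with chlorpyrifos, 0.08 with DDT, -0.74 with rotenone, 0.17 with carbaryl, -0.35 with deltamethrin and -1.35 with imidacloprid. It was thus the 1 of 5 genes at least 1.5-fold below control with chlorpyrifos (3.23% of all genes), rotenone (3.24%) and imidacloprid (2.8%). There was none with DDT (3.34%), carbaryl (3.21%) or deltamethrin (3.23%). Only 3.27% of genes within 2-fold of its mean spanned so wide a range. With the median of the other 6 libraries as the baseline, the fold with deltamethrin was 0.02.

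This spread was shared by 2 transcript ends. The end in the last exon of Eda2r had 1.93 FPKM with chlorpyrifos, 2.41 with DDT, 2.61 with rotenone, 3.55 with carbaryl, 3.79 with deltamethrin and 1.43 with imidacloprid, against 3.37 FPKM in control. An end inside the gene, at chrX:97337791-97339202, had 3.22 FPKM with DDT and 2.48 with carbaryl, against 1.89 FPKM in control. In chlorpyrifos, rotenone, deltamethrin and imidacloprid the same end stood at 0.0175, 0.038, 0.034 and 0.009 FPKM. The libraries in which Eda2r was lower in total were therefore those in which this inner end was near 0, and at the last exon deltamethrin and carbaryl stood above control. An alternative exon of 97 bases carried 1.12 to 5.59 FPKM in exposed libraries and 5.12 FPKM in control. Its 142-base version had at most 0.74 FPKM in an exposed library, against 0.258 FPKM in control, and was not listed with rotenone or deltamethrin.

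Mdm2 (chr10:117688875-117710758, minus strand) encodes the ubiquitin ligase that degrades p53 and is itself a target of p53, through an internal promoter in its first intron. The end total of Mdm2 was 21.1 FPKM with chlorpyrifos, 38.4 with DDT, 25.2 with rotenone, 24.3 with carbaryl, 34.7 with deltamethrin and 26.8 with imidacloprid, against 15.7 FPKM in control. Control was the lowest library, which was also so for 13.9% of 8119 genes whose end totals averaged 1 FPKM or more. The start total, all of it from the first exon, was 20.04 FPKM with chlorpyrifos, 11.3 with DDT, 12.03 with rotenone, 11.2 with carbaryl, 3.62 with deltamethrin and 6.24 with imidacloprid, against 3.74 FPKM in control. Here chlorpyrifos was highest, and deltamethrin was as low as control. No start at the second exon was listed, so use of the internal promoter cannot be read from these totals. The form that skips the 85-base exon described below had 18.2 FPKM with DDT and 10.5 with imidacloprid, more than the first-exon start there. In the other exposed libraries and in control it had 1.11 to 2.45 FPKM, less than that start. The form that includes this exon had 22.9 FPKM with rotenone, 22.6 with carbaryl, 32.2 with deltamethrin and 13.7 in control, again more than that start. With chlorpyrifos it had 10.3 FPKM, less than that start. The start total thus fell short of a form of this exon in every library but chlorpyrifos. Neither its order over the libraries nor its share of the end total measures promoter use. The start total was 95.0% of the end total with chlorpyrifos, 29.5% with DDT, 47.6% with rotenone, 46.1% with carbaryl, 10.5% with deltamethrin and 23.3% with imidacloprid, against 23.9% in control.

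The ends of Mdm2 also differed in kind. The end of the full-length forms had 19.99 FPKM with chlorpyrifos, 20.2 with DDT, 22.9 with rotenone, 22.6 with carbaryl, 32.2 with deltamethrin and 24.4 with imidacloprid, against 13.7 FPKM in control. An internal end at chr10:117694934-117695068 had 14.8 FPKM with DDT, 0.375 to 1.82 FPKM in the other exposed libraries and 0.465 FPKM in control. The high end total of the DDT library thus included this short form, and its full-length end was near that of chlorpyrifos.

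**Figure D2:**
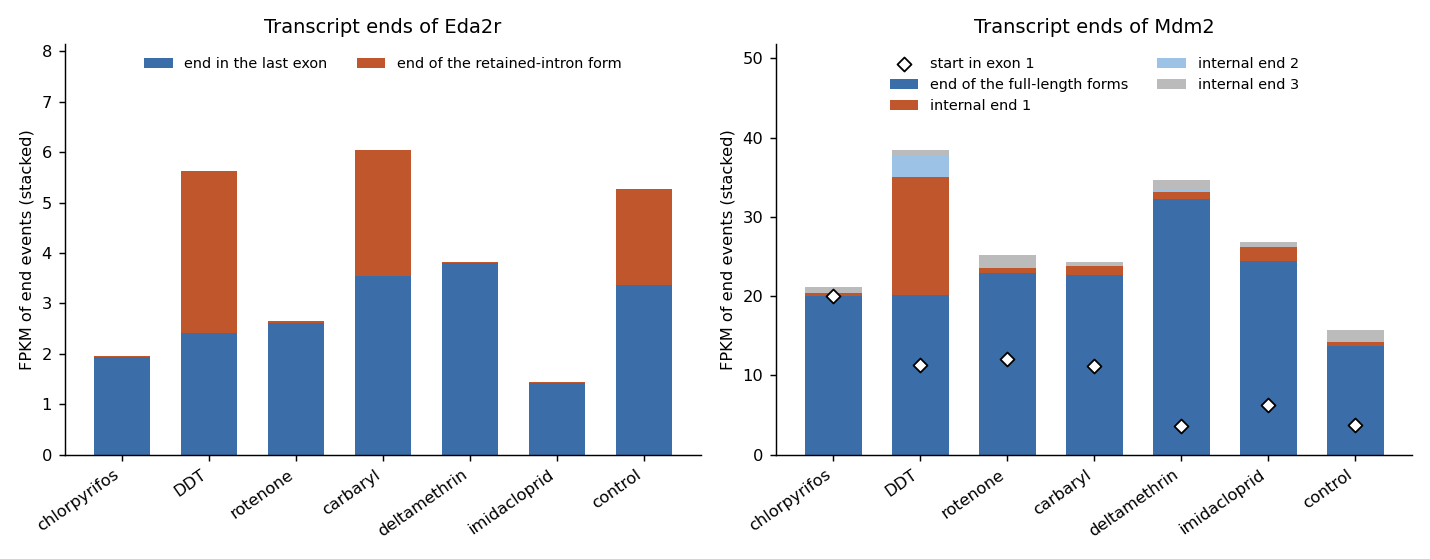
Stacked FPKM of each transcript end of Eda2r (left) and Mdm2 (right) in the 7 libraries, with the first-exon start of Mdm2 as white diamonds. The inner end of Eda2r is visible with DDT, carbaryl and in control only, and the first internal end of Mdm2 reaches 14.8 FPKM with DDT. The legend calls the inner end of Eda2r a retained-intron form, but no retained-intron event was listed for this gene.

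Splicing of Mdm2 involved an exon of 97 bases, exon 8 of 12 of the transcript Mdm2-201 (chr10:117695953-117696049, minus strand), which is coding and is not a whole number of codons. The exon was included in 100% of the FPKM with chlorpyrifos, 66.8% with DDT, 53.6% with rotenone, 51.6% with carbaryl, 64.3% with deltamethrin and 61.5% with imidacloprid, against 29.5% in control. Control was the lowest library, as it was for 11.4% of 6949 skipping events that averaged 5 FPKM or more. All 6 exposed libraries differed from control by more than 20 points. Differences of 20 points or more were found in 12.3% of these events with chlorpyrifos, 12.3% with DDT, 11.7% with rotenone, 12.3% with carbaryl, 12.5% with deltamethrin and 12.3% with imidacloprid. In FPKM, the form without the exon had 0 with chlorpyrifos, where it was not listed, and 10.1 to 11.8 in the other exposed libraries, against 9.998 in control. The form with the exon had 20.3 FPKM with chlorpyrifos, 23.4 with DDT, 12.6 with rotenone, 12.3 with carbaryl, 21.3 with deltamethrin and 16.1 with imidacloprid, against 4.18 FPKM in control. Of the 23.4 FPKM with DDT, 14.8 belonged to the short form with the internal end at chr10:117694934-117695068. The rest, 8.57 FPKM, belonged to the longer form, against 3.71 FPKM in control. The share with DDT thus rested in large part on that short form. Apart from chlorpyrifos, the libraries thus differed in the including form and hardly in the skipping one.

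An 85-base exon near the start of Mdm2 (chr10:117709700-117709784) was included in 90.3% of the FPKM with chlorpyrifos, 52.6% with DDT, 90.7% with rotenone, 93.2% with carbaryl, 92.9% with deltamethrin and 60.9% with imidacloprid, against 87.5% in control. DDT and imidacloprid were the low libraries, and both differed from control by more than 20 points. A longer version of that exon, of 131 bases, had 9.64 FPKM with chlorpyrifos, at most 0.004 FPKM in the other exposed libraries and 0.02 FPKM in control. Another exon, of 134 bases (chr10:117702202-117702335), was included in 49.2% with deltamethrin, in 100% in the other exposed libraries and in 100% in control.

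The skipped exons of Mdm2 and Trp53inp1 are shown because their inclusion separated the libraries. Both were read from GENCODE M21 transcripts (build GRCm38), with the exon in capitals and 12 bases of the neighbouring exons in lower case on each side. The exon of Trp53inp1 has 38 bases and is exon 4 of 5 of Trp53inp1-202 (chr4:11167897-11167934, plus strand). No annotated coding segment spans exactly this exon, and whether part of it is coding was not tested.
Mdm2 exon: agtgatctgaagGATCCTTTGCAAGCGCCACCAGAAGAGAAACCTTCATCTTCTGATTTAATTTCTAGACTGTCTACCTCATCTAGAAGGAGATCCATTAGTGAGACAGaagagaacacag
Trp53inp1 exon: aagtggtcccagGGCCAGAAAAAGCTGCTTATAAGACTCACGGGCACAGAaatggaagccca

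The exon of Trp53inp1 was included in 41.2% of the FPKM with chlorpyrifos, 18.98% with DDT, 38.2% with rotenone, 38.3% with carbaryl, 14.6% with deltamethrin and 36.7% with imidacloprid, against 22.1% in control. The libraries fell into a lower group of deltamethrin, DDT and control and a higher group of the other 4, and none differed from control by 20 points. In FPKM the including form had 2.45 to 7.67 in exposed libraries and 3.58 in control. A shorter version of another exon of Trp53inp1, of 154 bases (chr4:11165294-11165447), had 5.20 FPKM with rotenone and 2.45 FPKM with deltamethrin and was not listed elsewhere.

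**Figure D3:**
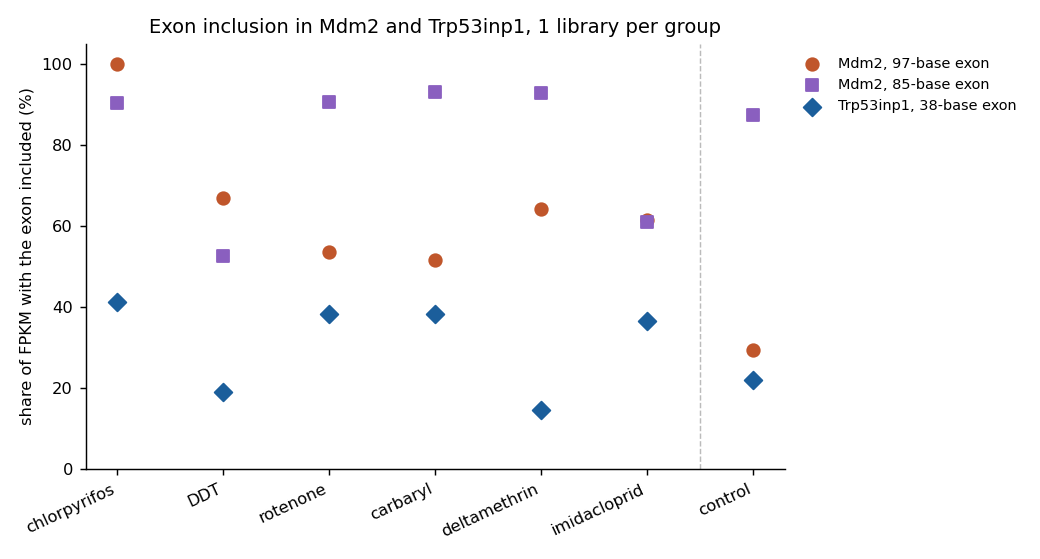
Share of FPKM with the exon included, in percent, for the 97-base and 85-base exons of Mdm2 and the 38-base exon of Trp53inp1 in the 7 libraries, control right of the dashed line. The 97-base exon runs from 100% with chlorpyrifos to 29.5% in control.

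The starts of Cdkn1a were used in other shares in the carbaryl library, while its total did not stand apart. The upstream start, whose promoter holds the strict motif, begins at 29090976 in the files and at 29090979 in RefSeq. It had 6.99 FPKM with chlorpyrifos, 7.50 with DDT, 7.21 with rotenone, 46.8 with carbaryl, 9.26 with deltamethrin and 7.87 with imidacloprid, against 4.89 FPKM in control. As a share of all starts of Cdkn1a this was 61.7% with carbaryl, 8.83% to 12.5% in the other exposed libraries and 8.02% in control. The carbaryl library therefore differed from control by more than 50 points, which some start did in 5.32% of 5230 genes that had at least 2 starts and averaged 5 FPKM or more. With the other insecticides that share was 5.33% with chlorpyrifos, 5.35% with DDT, 5.01% with rotenone, 4.57% with deltamethrin and 5.09% with imidacloprid, and Cdkn1a was not among those genes there.

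The proximal starts, 2793 bases downstream, lie 12 bases apart and lead to first exons of different length. The one with the short first exon had 46.5 FPKM with chlorpyrifos, 46.6 with DDT, 52.2 with rotenone, 28.5 with carbaryl, 38.4 with deltamethrin and 25.9 with imidacloprid, against 27.8 FPKM in control. The one with the long first exon had 25.1 FPKM with chlorpyrifos, 10.7 with DDT, 10.1 with rotenone, 31.4 with deltamethrin and 28.1 with imidacloprid, against 28.0 FPKM in control, and was not listed with carbaryl. Together both proximal starts had 71.6 FPKM with chlorpyrifos, 57.3 with DDT, 62.3 with rotenone, 28.5 with carbaryl, 69.7 with deltamethrin and 54.0 with imidacloprid, against 55.8 FPKM in control. Carbaryl was thus the lowest library at the proximal starts and the highest at the upstream one, and the end total of 75.7 FPKM with carbaryl lay within the range of the others. An annotated antisense gene, AC167363.2, overlaps Cdkn1a at the proximal starts, and the labels do not say whether the libraries keep strand.

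**Figure D4:**
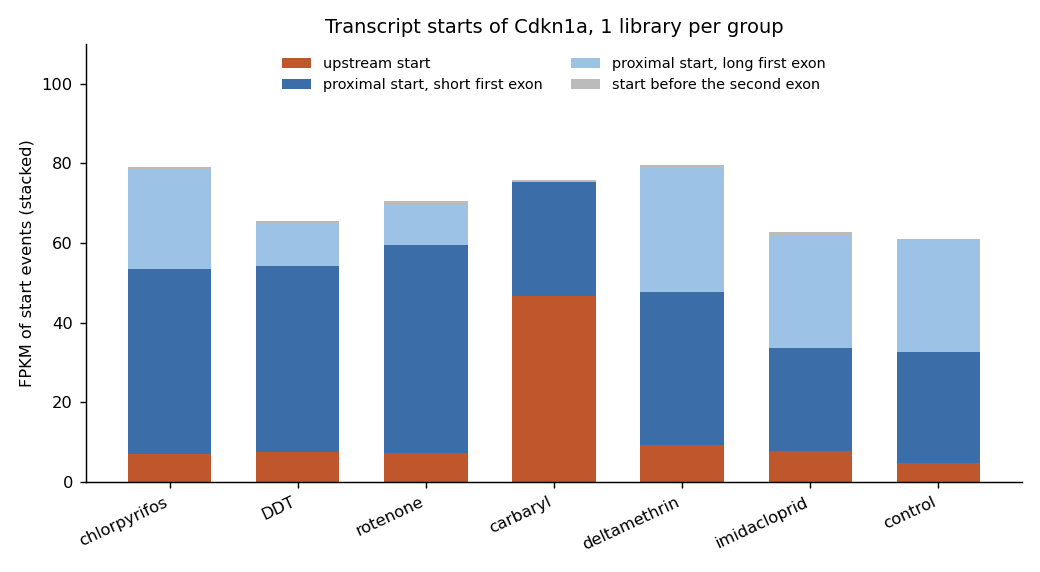
Stacked FPKM of the 4 transcript starts of Cdkn1a in the 7 libraries. The upstream start fills 61.7% of the bar with carbaryl and 8.02% in control, while the height of the bars stays between 61.0 and 79.6 FPKM.

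Bbc3 (chr7, plus strand) encodes Puma, a BH3-only protein that binds the survival members of the Bcl2 family. Its end total was 8.51 FPKM with chlorpyrifos, 6.34 with DDT, 9.19 with rotenone, 8.87 with carbaryl, 10.5 with deltamethrin and 7.16 with imidacloprid, against 6.07 FPKM in control. Its start total was 8.85 FPKM with chlorpyrifos, 7.73 with DDT, 12.1 with rotenone, 9.05 with carbaryl, 13.8 with deltamethrin and 9.74 with imidacloprid, against 9.33 FPKM in control. Deltamethrin and rotenone were the highest libraries at both ends, whereas control was the lowest by ends and in the middle by starts. Of its 5 starts, the last, at chr7:16313517-16313817, had 6.51 FPKM with deltamethrin, 4.44 with imidacloprid and 4.15 with rotenone, at most 1.37 FPKM in the other exposed libraries and 3.42 FPKM in control. A start close to the printed Bbc3 element, at chr7:16309616-16309861, had 2.72 to 6.28 FPKM in exposed libraries and 2.64 FPKM in control.

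Bax (chr7:45461697-45466898, minus strand), the pore-forming death protein, had no event under its own identifier. Its events were listed under that of Dhdh, in a locus that also holds the ferritin gene Ftl1, and were found by exon boundaries. The Bax end had 65.5 FPKM with chlorpyrifos, 104.6 with DDT, 71.8 with rotenone, 52.0 with carbaryl, 58.8 with deltamethrin and 67.5 with imidacloprid, against 104.8 FPKM in control. DDT and control were the highest libraries, and the other 5 lay below them. The Bax first-exon start had 42.6 FPKM with chlorpyrifos, 70.9 with DDT, 23.6 with rotenone, 26.8 with carbaryl, 539.9 with deltamethrin and 20.1 with imidacloprid, against 81.8 FPKM in control. In the same deltamethrin library the Ftl1 start had 17.4 FPKM, against 1192 to 1435 FPKM in the other exposed libraries and 1174 FPKM in control. The start value of Bax with deltamethrin and the low Ftl1 start therefore came together, while the Bax end in that library stayed in the range of the others. A readthrough gene, Gm45808, overlaps Bax in the annotation.

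Sesn1 (chr10:41809935-41908424, plus strand) encodes a sestrin, which restrains mTORC1 under stress. Its start total was 8.11 FPKM with chlorpyrifos, 9.04 with DDT, 10.1 with rotenone, 9.45 with carbaryl, 9.89 with deltamethrin and 10.6 with imidacloprid, against 8.60 FPKM in control. Its distal start had 2.63 FPKM with chlorpyrifos, 3.02 with DDT, 3.74 with rotenone, 4.301 with carbaryl, 3.45 with deltamethrin and 1.902 with imidacloprid, against 4.08 FPKM in control. Its proximal start was highest with imidacloprid, at 8.73 FPKM, with 5.15 to 6.44 FPKM in the other exposed libraries and 4.51 FPKM in control. The imidacloprid library thus had the lowest distal and the highest proximal start.

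Zmat3 (chr3:32334792-32366014, minus strand) encodes an RNA-binding zinc finger protein. Its start total was 12.5 FPKM with chlorpyrifos, 10.3 with DDT, 10.6 with rotenone, 10.8 with carbaryl, 12.01 with deltamethrin and 9.14 with imidacloprid, against 10.98 FPKM in control, with 4 exposed libraries below control. An exon of 327 bases was included in 89.8% with chlorpyrifos and in 100% in the other exposed libraries and in control. A start on the opposite strand within Zmat3 had 1.52 FPKM in control and was not listed in any exposed library.

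Among the genes that control p53, Trp53 itself had the widest folds. Its level was 19.2 FPKM with chlorpyrifos, 35.04 with DDT, 48.1 with rotenone, 58.1 with carbaryl, 46.3 with deltamethrin and 26.6 with imidacloprid, against 44.3 FPKM in control. Chlorpyrifos and imidacloprid were lowest (log2 folds -1.17 and -0.72), and carbaryl was highest (0.38). With imidacloprid the starts of Trp53 gave 17.2 FPKM and its ends 36.0 FPKM, so its value there depends on which is read. Rchy1, a ubiquitin ligase that acts on p53, was the only 1 of 6 usable genes of 18 on this list that was higher in all 6 exposed libraries (13.8% of all genes tested), at 22.2 to 28.8 FPKM against 18.5 FPKM in control. Ppm1d, the phosphatase that ends p53 signalling, had start totals of 12.5 to 13.5 FPKM in exposed libraries and 12.9 FPKM in control. The start total of Mdm4, the partner of Mdm2, was 10.5 to 16.4 FPKM in exposed libraries and 15.5 FPKM in control. Chek1, a checkpoint kinase, had 6.67 FPKM with deltamethrin, against 10.5 FPKM in control (log2 fold -0.59).

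Another list held 20 genes of arrest and feedback, p53 targets and relatives of targets such as Cdkn1b, Cdkn1c and Trp53inp2. Not every gene on it is an established target. Of these genes 15 could be used, and their median log2 fold was 0.05 with chlorpyrifos, 0.09 with DDT, 0.17 with rotenone, 0.08 with carbaryl, 0.10 with deltamethrin and 0.07 with imidacloprid. Of the 15 genes, 6 were higher in all 6 exposed libraries and none lower in all 6, beside 13.8% and 12.8% of all genes tested. Tob1, an antiproliferative protein, was the one with the largest folds of these, at 9.88 to 15.4 FPKM in exposed libraries and 8.11 FPKM in control, with log2 folds from 0.26 with imidacloprid to 0.85 with rotenone. Psrc1, a spindle protein, had 20.5 to 26.5 FPKM in exposed libraries and 18.5 FPKM in control. Ckap2, a cytoskeleton protein of dividing cells, had 23.0 FPKM with imidacloprid, against 40.2 FPKM in control (log2 fold -0.78), and the phosphatase Ptp4a3 had 6.63 FPKM with carbaryl, against 14.4 FPKM in control (-1.01).

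Of 16 other death genes on the list 5 could be used, with medians from -0.17 with DDT to 0.14 with deltamethrin. With each of DDT, rotenone and imidacloprid 1 of the 5 was at least 1.2-fold below control (12.5%, 11.4% and 10.3% of all genes). These were Pmp22, a myelin and growth arrest protein, with DDT (51.5 FPKM, against 66.8 FPKM in control, log2 fold -0.37), and Tnfrsf10b, a death receptor named after its values were seen. Tnfrsf10b had 2.43 FPKM with rotenone and 2.65 with imidacloprid, against 3.43 FPKM in control (-0.37 and -0.28). Pmaip1, which encodes the BH3-only protein Noxa, had 5.12 to 6.10 FPKM in exposed libraries and 5.30 FPKM in control, and Siva1, a pro-apoptotic adaptor, had 21.7 to 24.6 FPKM in exposed libraries and 25.5 FPKM in control. Of 20 genes of the Bcl2 family and caspases 7 could be used, with medians between -0.05 with DDT and 0.08 with rotenone. Bcl2l1, which encodes the survival protein Bcl-xL, had 20.2 to 23.0 FPKM in exposed libraries and 20.5 FPKM in control, and the pore-forming Bak1 had 20.6 to 25.9 FPKM in exposed libraries and 26.4 FPKM in control.

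Of 18 genes listed under repair and metabolism, not all of them established targets, 10 could be used, with medians between -0.07 with imidacloprid and 0.08 with rotenone. Dcxr, a sugar reductase, had the largest folds of the list, at 11.6 FPKM with chlorpyrifos, 6.98 with DDT, 12.1 with rotenone, 8.34 with carbaryl, 6.44 with deltamethrin and 10.6 with imidacloprid, against 3.90 FPKM in control. Control was its lowest library by a wide margin, and its log2 folds ran from 0.60 with deltamethrin to 1.41 with rotenone. Ddb2, a DNA damage sensor named here after its values were seen, had 1.68 FPKM with chlorpyrifos, 1.67 with DDT and 2.57 with rotenone, against 0.89 FPKM in control (log2 folds 0.50, 0.49 and 0.92). Ddit3, a stress transcription factor, had 9.13 FPKM with DDT and 8.81 with rotenone, against 6.59 FPKM in control (0.42 and 0.37). The repair polymerase gene Polh and the glycolysis regulator Tigar were lower in all 6 exposed libraries than in control, at 6.88 to 8.53 FPKM against 8.63 FPKM and at 5.73 to 7.17 FPKM against 7.41 FPKM.

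Genes repressed through p21 and the DREAM complex are mostly mitotic genes. Of 20 on the list 12 could be used, with median log2 folds of -0.04 with chlorpyrifos, -0.11 with DDT, -0.18 with rotenone, -0.07 with carbaryl, -0.11 with deltamethrin and -0.00 with imidacloprid. Among the 15 pairs of exposed libraries the median of these 12 genes ranged from -0.22 to 0.09, with a median size of 0.067. In the 6 pairs with control it ranged from -0.18 to -0.004, with a median size of 0.089. The medians against control thus lay within the range between exposed libraries, but their typical size was larger and all were negative. Of the 12 genes, 9 were lower than in control with chlorpyrifos (50% of all genes tested), 10 with DDT (47.6%), 12 with rotenone (49%), 10 with carbaryl (50.1%), 10 with deltamethrin (49.3%) and 6 with imidacloprid (46.6%). In all 6 exposed libraries 5 of the 12 were lower than in control and none higher, beside 12.8% and 13.8% of all genes tested. Mki67, the proliferation marker, was one of them, at 35.6 to 48.4 FPKM in exposed libraries and 52.5 FPKM in control, with its largest log2 fold at -0.55 with DDT. Cdc20, an activator of the anaphase-promoting complex, had 46.7 to 57.9 FPKM in exposed libraries and 60.5 FPKM in control.

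A list of cyclins and kinases that p21 acts on gave no common direction. It also held genes that are neither, of the Rb, E2f and Lin families, such as Rb1, E2f1 and Lin54. The counts and medians below cover all of these together. Of 23 genes 16 could be used, with medians between -0.13 with rotenone, where 12 of 16 were lower (49% of all genes tested), and 0.02 with chlorpyrifos. Cdk1, the mitotic kinase, was higher in all 6 exposed libraries, at 19.9 to 32.0 FPKM against 18.9 FPKM in control. Its cyclin, Ccnb1, had 62.4 FPKM with chlorpyrifos, 30.3 with DDT, 44.3 with rotenone, 40.1 with carbaryl, 56.2 with deltamethrin and 34.5 with imidacloprid, against 60.3 FPKM in control. DDT and imidacloprid were the lowest libraries for Ccnb1, with log2 folds of -0.97 and -0.79. The parts that proliferation, cell makeup and the single control library have in these values were not tested.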

How the data were processed

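Per the labels' protocols, RNA was extracted from 7 cultures and sequenced, with 1 library per group. The submitters' processing notes name HISAT2 2.0.1, bcl2fastq 2.17.1.14 and cutadapt 1.9.1 with build GRCm38. The sources used here do not name the program that estimated the values. Per the file headers, the deposited FPKM values belong to transcript-structure events (starts, ends, skipped exons, retained introns and alternative exons), and they were used without rescaling. Between 1973 and 2078 repeated lines per library were dropped.

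Events were assigned by the Ensembl identifier on each line and only on the gene's own strand; 0.907% of start and end events, with 0.159% of their FPKM, lay on the other strand. A gene's value was the mean of its start and end totals, and a total below 5% of its counterpart was taken as missing. Of 13553 genes, 6289 were tested, 2840 had ends that disagreed, 2785 had starts alone, 523 had ends alone, and 1116 averaged under 1 FPKM. Bax was assigned by exon boundaries of GENCODE M21. Folds used a pseudocount of 1 FPKM, and no fold was taken against a value listed at 0. Calls were counted at 1.2-fold and 1.5-fold. An exon's inclusion is the FPKM of the including form as a percentage of both forms. The lowest listed value was 1e-06 FPKM, so no read counts could be recovered and no interval or floor is given.

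The members and the gene lists were chosen with earlier results of these data known. From each other list, up to 4 genes that averaged 5 FPKM or more, those of largest absolute fold, were open to naming, with Trp53, Mdm4 and Ppm1d and the 5 genes most like Cdkn1a. Python 3.11.15, pandas 2.3.3, numpy 2.4.6 and matplotlib 3.10.9 were used, and the steps were tested on simulated data. For gene values 11 other settings were tried: starts or ends alone, the larger total, no agreement filter, another pseudocount, other minimum means, rescaled libraries, another baseline, assignment by exon boundary and repeated lines kept. Splicing events were also counted without a minimum level.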

Additional observations from a re-analysis of the deposited data

Results flagged for a closer look

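A start of Ccng1 on the opposite strand, outside the strand used for gene values, was listed at 0.473 FPKM with rotenone and in no other library, control included. The first-exon start of Bax, which was listed under another gene's identifier, stood at 539.9 FPKM with deltamethrin, against 81.8 FPKM in control. It stands out because no other exposed library exceeded 70.9 FPKM there, and its cause was not tested.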

How the results depend on the processing

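Of the list medians and counts under other settings, 129 kept within the tolerance used (0.131 for medians, 1.5 times for counts) and 15 did not. The median log2 fold ranged over settings from 0.14 to 0.25 with chlorpyrifos, -0.08 to 0.11 with DDT, 0.00 to 0.21 with rotenone, 0.15 to 0.27 with carbaryl, 0.05 to 0.23 with deltamethrin and -0.16 to 0.05 with imidacloprid. The values past the tolerance came with the median of the other 6 libraries as the baseline (medians -0.077 with DDT, 0.0032 with rotenone and -0.16 with imidacloprid, and counts of higher genes of 2 with DDT and 0 with imidacloprid, of 5) and with settings that add genes. By start totals alone, 6 of 9 genes were higher with rotenone, 7 with deltamethrin and 6 with imidacloprid. By the larger total they were 6, 8 and 6 of 9. By end totals alone, and likewise without the agreement filter, 5 of 7 were higher with rotenone and with imidacloprid. With the baseline of the other libraries, Eda2r with deltamethrin reversed to 0.0227, and smaller folds also changed sign: Cdkn1a with DDT (-0.16) and imidacloprid (-0.22), Ccng1 with DDT (-0.08) and imidacloprid (-0.16), Plk2 with carbaryl (-0.03) and imidacloprid (-0.01) and Trp53inp1 with deltamethrin (-0.01). Leaving out Eda2r, chosen after seeing the data, gave medians of 0.23 with chlorpyrifos, 0.11 with DDT, 0.20 with rotenone, 0.26 with carbaryl, 0.17 with deltamethrin and 0.04 with imidacloprid. Without a depth per library, the error of single values is unknown. No paired analysis was possible because each group has 1 library.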
